A study of Mus musculus with 6 samples.

Results

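Cholesterol and fatty acid synthesis was described here through 29 listed genes, of 35434 gene symbols in the deposited table. The members were chosen by their named role in the pathway. They fall into a sterol branch of 22 genes (18 enzymes in path order, and the regulators and carrier Srebf2, Scap, Insig1 and Stard4) and a fatty acid branch of 7 genes (6 enzymes and the regulator Srebf1). All 29 were rows of the table, and all 29 stood at 1 FPKM or more (fragments scaled to the length of the gene and the depth of the library) in all 6 libraries. Fatty acid oxidation and bile acid transport were not part of the list.

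Cells build cholesterol from acetyl-CoA through the mevalonate pathway, squalene and lanosterol, and they build fatty acids from the same acetyl-CoA through malonyl-CoA. Both routes are driven by the SREBP transcription factors, which Scap carries from the endoplasmic reticulum to the Golgi for cleavage when sterols are low, and which Insig proteins hold back when sterols are high. SREBP2, the product of Srebf2, is best known for sterol genes, and SREBP1, the product of Srebf1, for fatty acid genes. The gut lining renews its cells continuously and is among the tissues that make sterols in quantity.

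The libraries came from the large intestine of mice with inflammatory bowel disease that had received regulatory T cells (Tregs), from a control preparation or one treated with lenvatinib, an inhibitor of several receptor tyrosine kinases. The labels give a group int 3 and a group int 2 with 3 libraries each, and do not state which transfer either number stands for, nor the strain, the age or the disease model. Differences are therefore written as int 3 minus int 2, with no treatment assigned. Whether each library is a separate animal is not stated, and the p-values refer to the spread among libraries alone, which may be technical.

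Sequencing depth was even, at 34021820 to 35060599 fragments in int 3 and 34162484 to 34447586 in int 2, as read from the steps in the FPKM values. The epithelial genes Epcam, Cdh1, Krt8, Krt18, Krt19 and Vil1 summed to 3750 to 4797 FPKM in int 3 and 4234 to 4275 in int 2. Smooth muscle genes summed to 3230 to 3805 in int 3 and 4028 to 4041 in int 2. Epithelium and smooth muscle were therefore present in every library, which does not show the position along the gut. The int 3 libraries lay far apart and the int 2 libraries close together, and int 3-1 lay between int 3-2 and int 3-3 in 73.5% of all tested genes. In an arbitrary order each of the 3 libraries would be the middle one equally often. The int 3 libraries may therefore hold fewer than 3 independent values, which was not tested. The SE, SD and p-values below count them as 3. Hoxb13, which marks the distal end of the gut, had 146, 16.4 and 267 FPKM across int 3-1, int 3-2 and int 3-3, against 285 to 288 in int 2. Hoxd13 had 14.2, 0.286 and 26.4 FPKM in the same order, against 9.80 to 11.1 in int 2, and Hoxa13 had 12.1, 10.1 and 15.3, against 10.5 to 11.7. All of these distal genes were lowest in int 3-2, but only Hoxb13 was below int 2 in every int 3 library. In whole tissue, fewer cells of a type and less RNA per cell cannot be told apart.

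The fatty acid branch was higher in int 3 in 4 of its 7 genes, and the sterol branch moved little and in both directions. Scd1 and Scd2, the stearoyl-CoA desaturases that make monounsaturated fatty acids, Acaca, the acetyl-CoA carboxylase of the committed step, and Srebf1 rose by 0.34 to 0.52 on the log2 scale. In the sterol branch Fdps, Stard4, Acat2 and Nsdhl rose by 0.21 to 0.36, Hmgcs1 fell by 0.35, and 17 genes did not pass the test. No member reached a 2-fold change, while 321 of the 1921 genes called in all did.

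A gene rose or fell where limma's adjusted p for int 3 against int 2 was under 0.05 over 12525 tested genes. Of all tested genes 15.3% were called, 8.64% as higher and 6.7% as lower in int 3. Higher genes made up 56.3% of the calls, 66.6% with the values rescaled to TPM (1327 higher and 666 lower), 51.4% with median-of-ratios scaling (1040 and 985) and 47.3% with quantile normalization (1036 and 1155), where the balance turned. In the sterol branch 5 of 22 genes were called (22.7%), 4 higher and 1 lower. In the fatty acid branch 4 of 7 were called (57.1%), all of them higher. The median log2 change was 0.13 in the sterol branch and 0.42 in the fatty acid branch, beside 0.03 over all tested genes. Without regard to the test, int 3 lay wholly above int 2 in 9 sterol and 4 fatty acid genes, as did 22.4% of all tested genes. It lay wholly below int 2 in 3 sterol genes and 1 fatty acid gene, as did 17.9% of all tested genes.

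**Figure D1:**
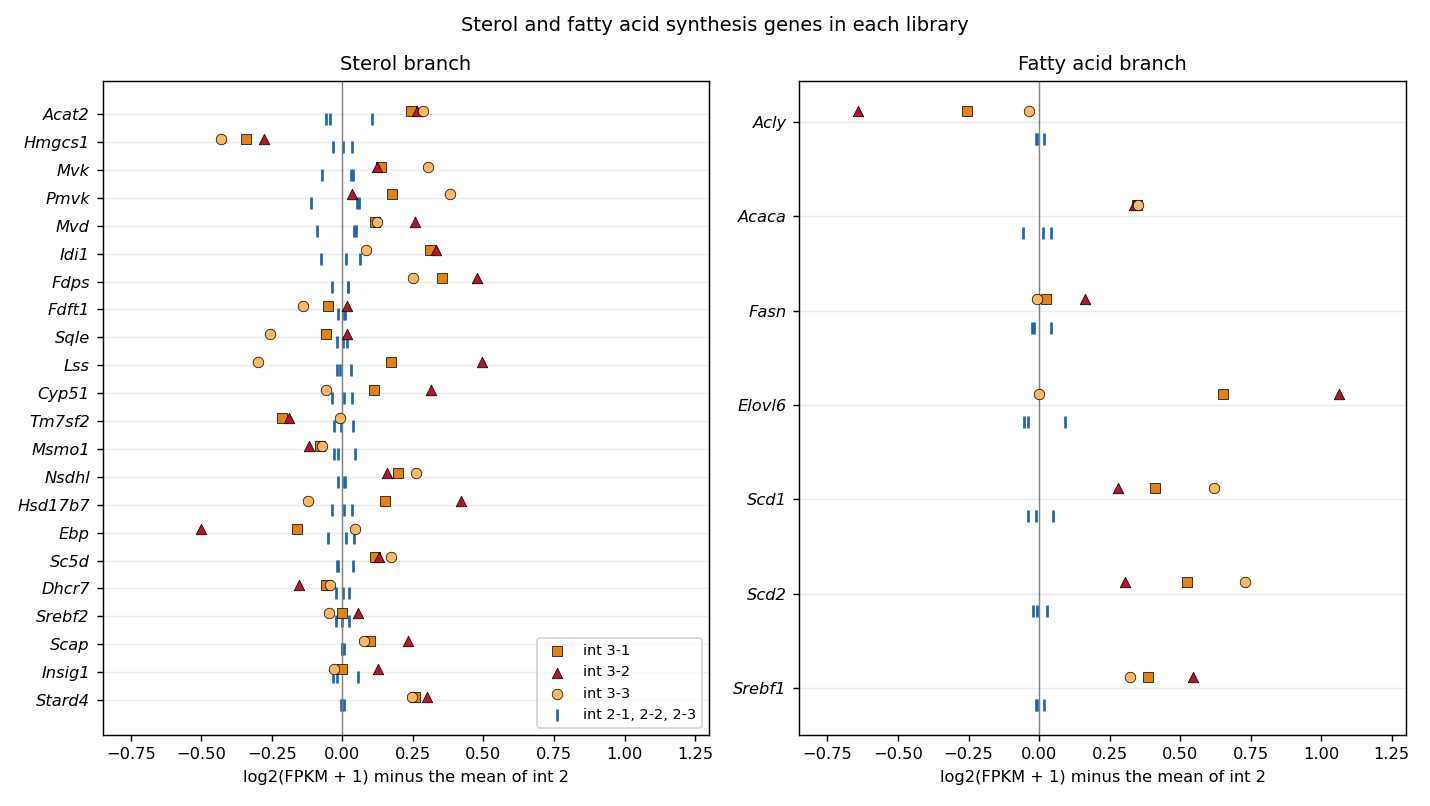
Each gene's log2(FPKM + 1) in each library, less the mean of the int 2 libraries, for the sterol branch (left) and the fatty acid branch (right) in path order. Squares, triangles and circles are int 3-1, int 3-2 and int 3-3, and blue ticks are the 3 int 2 libraries, which keep within a narrow band while int 3 is spread. Acaca has its 3 int 3 libraries at nearly the same place, and Elovl6 has int 3-3 among the int 2 libraries.

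The 9 calls depended on which library was left out. Without int 3-1, int 2-1 or int 2-2 in turn, 0 of the 29 members passed, and without int 2-3 only Acat2 did. The count over all genes was then 642, 635, 615 and 637, against 1921. Without int 3-2 the same 9 passed, and without int 3-3 these 9 and 6 further members passed (Idi1, Lss, Tm7sf2, Ebp, Acly and Elovl6). The count over all genes also rose, to 2633 without int 3-2 and 4913 without int 3-3, of 12525 tested. Members that passed only without int 3-3 stand beside that larger count. The direction of each of the 9 was the same in every one of these fits. It could not have turned, because the groups of each of the 9 did not overlap.

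The sterol branch opens with Acat2, a cytosolic acetoacetyl-CoA thiolase, and Hmgcs1, the HMG-CoA synthase that follows it. Acat2 stood at 27.9, 28.4 and 28.8 FPKM across int 3-1, int 3-2 and int 3-3, against 22.5, 22.7 and 25.3 in int 2-1, int 2-2 and int 2-3. Hmgcs1 stood at 61.3, 64.1 and 57.6 FPKM in int 3, against 78.0, 79.7 and 76.1 in int 2. The groups did not overlap for either gene, and the neighbouring steps went opposite ways. Acat2 rose by 0.27 on the log2(FPKM + 1) scale (SE 0.06, adjusted p = 0.0321). Hmgcs1 fell by 0.35 (SE 0.06, adjusted p = 0.0108), and its mean fell by 21.7%, to 61.0 ± 3.30 FPKM in int 3, against 77.9 ± 1.79 in int 2 (SD, n = 3 libraries each). The Acat2 call did not pass with median-of-ratios scaling (adjusted p = 0.079) or quantile normalization (0.0674), and that of Hmgcs1 did not with TPM (0.0519). Acat2 has a close paralog in the mouse, Acat3, at 1.91 to 2.68 FPKM in int 3 and 1.15 to 2.17 in int 2, and its value is uncertain where shared fragments were split.

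SREBPs bind sterol regulatory elements, often beside a CCAAT box bound by NF-Y. RefSeq promoter windows of 300 bases (250 before to 50 after the start, GRCm38.p6, a build other than the table's) were matched by symbol to 23 of the 29 members. The letters TCACNCCAC, searched on both strands, were in the window of 1 of these 23, Hmgcs1, and in 1.44% of 27025 genes with a window. The 6 members without a window were not searched. They were Fdps, Stard4, Scd1 and Scd2, which rose, and Fdft1 and Sqle. CCAAT was found for 19 of the 23 members (82.6%; 16 of 18 sterol and 3 of 5 fatty acid genes) and for 41.1% of all genes. The E-box CACGTG was found for 5 members, all of the sterol branch (21.7%), and for 8.09% of all genes. These are matches of letters in a window and not measured sites.

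The windows of Hmgcs1, which fell, and Nsdhl, which rose, are shown because both hold 4 CCAAT matches and only that of Hmgcs1 holds TCACNCCAC. Nsdhl was added after the matches were seen. Capitals mark the matches, where ATTGG is CCAAT on the other strand. The Hmgcs1 window is chr13:119690101-119690400 on the plus strand, with TCACCCCAC from base -137 to base -129 and ATTGG starting at bases -237, -176, -45 and 11, counted from the start as base 1. The Nsdhl window is chrX:72918271-72918570 on the plus strand, with ATTGG starting at bases -109, -20 and 9 and CCAAT at base 35.
Hmgcs1: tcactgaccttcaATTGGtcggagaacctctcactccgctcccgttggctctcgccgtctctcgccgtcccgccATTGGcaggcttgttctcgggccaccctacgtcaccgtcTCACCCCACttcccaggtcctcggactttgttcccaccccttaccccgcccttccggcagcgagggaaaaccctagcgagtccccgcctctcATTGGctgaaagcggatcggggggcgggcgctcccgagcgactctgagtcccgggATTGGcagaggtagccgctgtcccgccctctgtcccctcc
Nsdhl: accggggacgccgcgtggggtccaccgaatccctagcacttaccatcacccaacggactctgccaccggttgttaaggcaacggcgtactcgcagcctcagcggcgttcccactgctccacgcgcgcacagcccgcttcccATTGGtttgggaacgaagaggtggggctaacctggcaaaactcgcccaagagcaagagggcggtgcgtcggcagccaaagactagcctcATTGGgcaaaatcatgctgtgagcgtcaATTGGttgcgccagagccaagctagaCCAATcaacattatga

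The mevalonate kinases and the isoprenoid enzymes come next. Mvk (mevalonate kinase), Pmvk (phosphomevalonate kinase), Mvd (the decarboxylase that yields isopentenyl diphosphate) and Idi1 (its isomerase) had log2 changes of 0.19, 0.20, 0.17 and 0.24, and none of them passed (adjusted p = 0.118, 0.238, 0.141 and 0.103). Mvk, Mvd and Idi1 had int 3 wholly above int 2, as at 19.1, 19.4 and 16.2 FPKM in int 3 against 14.4, 15.3 and 15.9 in int 2 for Idi1. Without int 3-3 the change of Idi1 was 0.32 and passed (adjusted p = 0.00935). Fdps, the farnesyl diphosphate synthase that ends this segment, was the most abundant sterol gene per length. It stood at 115, 126 and 107 FPKM across int 3-1, int 3-2 and int 3-3, against 87.7, 91.3 and 91.3 in int 2. All int 3 libraries were above all int 2 libraries. Fdps rose by 0.36 (SE 0.07, adjusted p = 0.0186), a mean 28.9% higher at 116 ± 9.21 FPKM in int 3 against 90.1 ± 2.09 in int 2 (SD, n = 3). With quantile normalization its adjusted p was 0.0532.

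Between Fdps and lanosterol no enzyme passed. Fdft1, the squalene synthase, stood at 11.8 to 13.2 FPKM in int 3 and 12.9 to 13.2 in int 2, with a log2 change of -0.06 a 95% interval of -0.20 to 0.08, and a change of 0.01 with TPM. Sqle, the squalene epoxidase and a rate-limiting oxygenase of the route, stood at 33.7 to 40.9 FPKM in int 3 and 39.9 to 40.9 in int 2 (log2 change -0.10, interval -0.29 to 0.09, adjusted p = 0.413). Lss, the lanosterol synthase, was the most uneven sterol gene. It stood at 7.72, 9.90 and 5.29 FPKM across int 3-1, int 3-2 and int 3-3, against 6.63, 6.69 and 6.90 in int 2. Int 3-2 and int 3-1 lay above int 2 and int 3-3 lay below it, and the change of 0.12 had an interval of -0.34 to 0.58. Its sign turned without int 3-2 (-0.06, adjusted p = 0.773), and without int 3-3 it was 0.33 and passed (adjusted p = 0.0416).

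After lanosterol the enzymes of demethylation, isomerization and reduction turn the ring system into cholesterol, and 1 of these 8 passed. Nsdhl, a sterol dehydrogenase of the C4 demethylation, stood at 21.05, 20.47 and 22.04 FPKM in int 3 against 18.32, 18.01 and 18.38 in int 2. Its groups did not overlap, and it rose by 0.21 (SE 0.05, adjusted p = 0.0391). That call did not pass with median-of-ratios scaling (0.156) or quantile normalization (0.149). Its partners in the same demethylation, Msmo1, the C4 methyl oxidase, and Hsd17b7, a sterol ketoreductase, had log2 changes of -0.09 and 0.15 (adjusted p = 0.227 and 0.489).

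Cyp51, the lanosterol 14-demethylase, had 36.2 to 47.2 FPKM in int 3 and 36.8 to 38.7 in int 2 (log2 change 0.12, adjusted p = 0.42). Tm7sf2, a C14 sterol reductase, Ebp, the sterol isomerase, and Dhcr7, the last reductase of the Kandutsch-Russell route, had log2 changes of -0.14, -0.21 and -0.08 (adjusted p = 0.22, 0.336 and 0.298). Ebp was uneven in int 3, at 52.5, 41.3 and 60.7 FPKM across int 3-1, int 3-2 and int 3-3, against 60.5, 59.3 and 56.7 in int 2. Without int 3-3 the changes of Ebp and Tm7sf2 were -0.33 and -0.20 and passed (adjusted p = 0.0437 and 0.023), and without int 3-2 that of Ebp was -0.06 (0.605). Sc5d, the desaturase before Dhcr7, stood at 13.8 to 14.4 FPKM in int 3, all above the 12.5 to 13.0 of int 2, and did not pass (0.14, adjusted p = 0.107). The widths of these intervals differ with the int 3 spread, so a gene that did not pass is not shown to be equal in the groups.

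Among the regulators of the sterol branch Srebf2 and Insig1 showed little difference. Srebf2 stood at 30.5, 31.8 and 29.5 FPKM in int 3, against 30.03, 31.1 and 30.5 in int 2 (log2 change 0.00, interval -0.11 to 0.12, adjusted p = 0.97). Insig1, a feedback target of SREBPs that retains Scap, stood at 29.9 to 33.4 FPKM in int 3 and 29.8 to 31.8 in int 2 (0.03, interval -0.11 to 0.18). The signs of these small values turned with the scaling, to -0.04 for Srebf2 and -0.01 for Insig1 with median-of-ratios scaling. Scap stood at 12.6 to 14.2 FPKM in int 3, above the 11.9 of each int 2 library, and did not pass (0.14, adjusted p = 0.176).

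Stard4, a soluble carrier that moves cholesterol between membranes and is itself a target of SREBP2, rose. It stood at 38.9, 40.0 and 38.6 FPKM in int 3 and 32.3, 32.5 and 32.2 in int 2, so that the gap between the groups was far wider than the spread in either. The log2 change was 0.27 (SE 0.04, adjusted p = 0.0107), and it passed with each of the other scalings (adjusted p = 0.0134 to 0.0231).

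**Figure D2:**
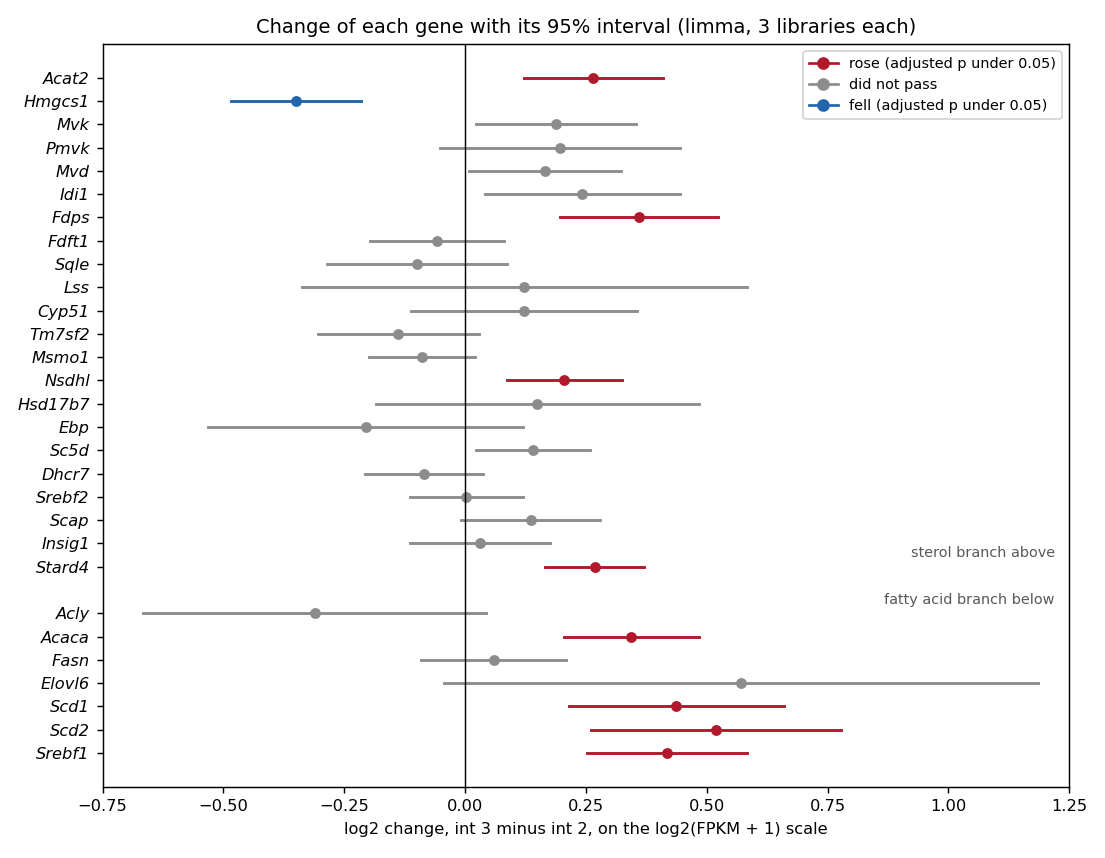
Log2 change of each member, int 3 minus int 2, with limma's 95% interval from 3 libraries a group, in path order. Red marks genes that rose, blue the gene that fell (Hmgcs1) and grey those that did not pass. Elovl6 and Lss have the widest intervals, -0.04 to 1.19 and -0.34 to 0.58.

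The fatty acid branch begins with Acly, the ATP citrate lyase that supplies cytosolic acetyl-CoA to both branches. Acly stood at 51.4, 39.1 and 60.1 FPKM across int 3-1, int 3-2 and int 3-3, against 62.3, 61.3 and 61.1 in int 2. Every int 3 library was lower, int 3-3 by little, and the change of -0.31 did not pass (SE 0.15, interval -0.67 to 0.04, adjusted p = 0.201). It was -0.15 without int 3-2 (adjusted p = 0.195) and -0.45 without int 3-3 (adjusted p = 0.022). Acaca stood at 5.27, 5.22 and 5.29 FPKM in int 3 and 3.74, 4.08 and 3.98 in int 2. It was the most even member within int 3, with a coefficient of variation of 0.696%, and it rose by 0.34 (SE 0.06, adjusted p = 0.0129), a mean 33.7% higher.

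Fasn, the fatty acid synthase that makes palmitate, had no clear difference at 18.3, 20.2 and 17.9 FPKM in int 3 and 17.7, 17.7 and 18.5 in int 2. Its log2 change was 0.06 (interval -0.09 to 0.21, adjusted p = 0.545), and with quantile normalization it was -0.0032. Elovl6, the elongase from palmitate to stearate, was the most uneven member of all. It stood at 9.86, 13.5 and 5.91 FPKM across int 3-1, int 3-2 and int 3-3, against 5.74, 6.37 and 5.66 in int 2. Int 3-1 and int 3-2 lay above every int 2 library and int 3-3 lay among them. The log2 change of 0.57 did not pass (SE 0.25, adjusted p = 0.18). It was 0.33 without int 3-2 (adjusted p = 0.255) and 0.86 without int 3-3 (adjusted p = 0.00481).

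The desaturases were the members with the largest called changes. Scd2 was also the most abundant gene of both branches per length, at 192, 165 and 222 FPKM across int 3-1, int 3-2 and int 3-3, against 132, 136 and 133 in int 2. Scd1 stood at 20.0, 18.2 and 23.3 FPKM in int 3 against 15.3, 14.7 and 14.4 in int 2. All int 3 libraries of both genes were above all int 2 libraries, with int 3-3 the highest and int 3-2 the lowest of int 3. Scd2 rose by 0.52 (SE 0.11, adjusted p = 0.0249), to 193 ± 28.6 FPKM in int 3 against 134 ± 2.36 in int 2 (SD, n = 3), a mean 44.7% higher. Scd1 rose by 0.44 (SE 0.09, adjusted p = 0.0267), a mean 38.4% higher. The calls of Scd1 and Scd2 did not pass with median-of-ratios scaling (adjusted p = 0.0738 and 0.069) or without a filter (0.0516 and 0.0522), and that of Scd1 did not with quantile normalization (0.0644). Scd1 and Scd2 are close paralogs, so fragments shared between them may have been split. Of the other desaturase paralogs, Scd3 was at 0.0335 FPKM or less and Scd4 at 0.158 or less in every library.

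Srebf1 rose where Srebf2 showed no clear difference. Srebf1 stood at 19.5, 21.9 and 18.6 FPKM across int 3-1, int 3-2 and int 3-3, against 14.6, 14.9 and 14.6 in int 2. The lowest int 3 library was well above the highest int 2 library. The log2 change was 0.42 (SE 0.07, adjusted p = 0.012), a mean 36.1% higher. It was the member that passed under all 10 alternatives that kept the 6 libraries. Within each library, the ratio of Srebf1 to Srebf2 was 0.639, 0.689 and 0.630 in int 3 and 0.485, 0.479 and 0.479 in int 2, a measure that the scaling of a library does not move. This ratio was chosen after the values were seen.

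**Figure D3:**
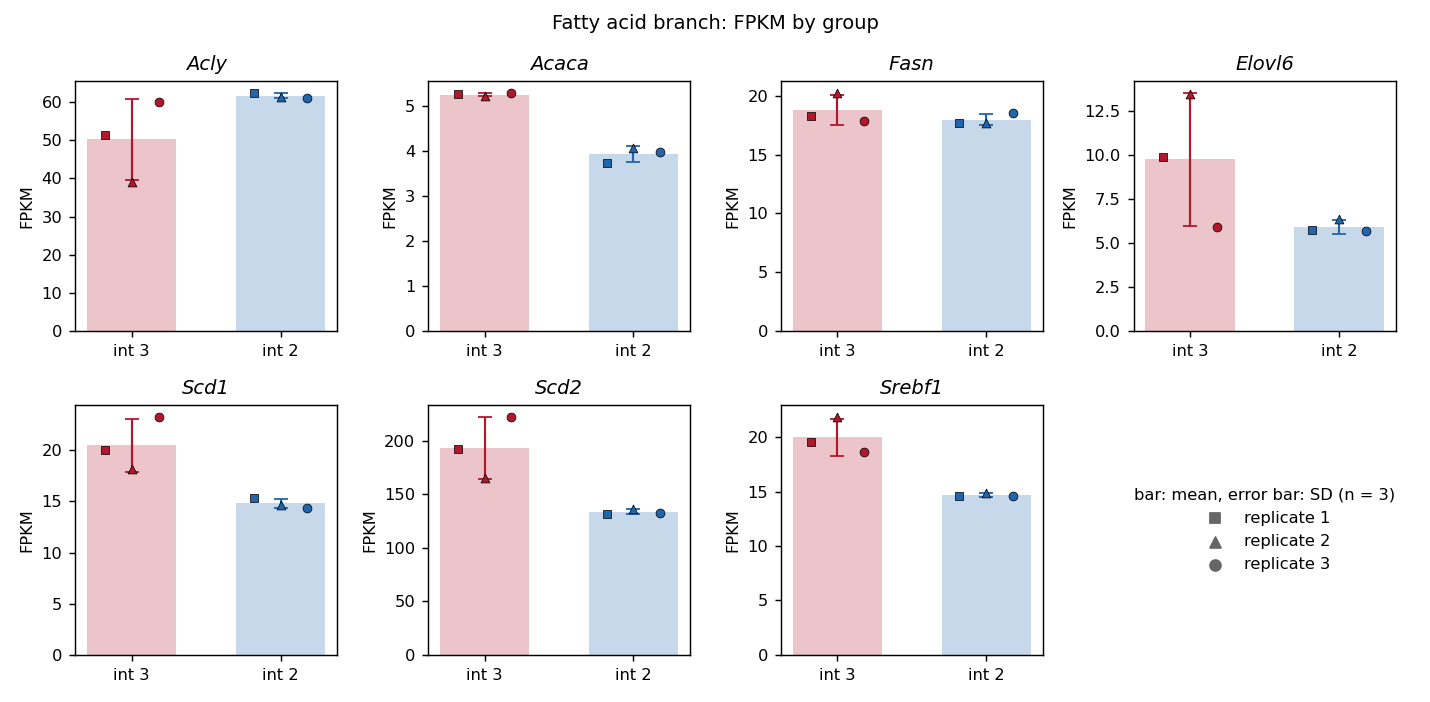
FPKM of the 7 fatty acid branch genes in int 3 (red) and int 2 (blue). Bars are means and error bars the SD of 3 libraries, and squares, triangles and circles are replicates 1, 2 and 3 of each group. Acaca, Scd1, Scd2 and Srebf1 have all int 3 libraries above all int 2 libraries, and Elovl6 has int 3-3 at the int 2 level.

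The other genes of the pathway were taken from lists drawn up by function. The counts called in each list stand beside 8.64% of all tested genes called as higher and 6.7% as lower, with a median log2 change of 0.03. Of 16 other sterol enzymes and regulators 15 were tested, of which 1 rose, 0 fell and 14 did not pass, with a median log2 change of 0.14. The gene that rose was Mbtps2, the protease of the last cleavage of SREBPs, at 4.18, 4.43 and 3.75 FPKM in int 3 against 3.13, 3.36 and 3.09 in int 2 (0.29, adjusted p = 0.049997).

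Of 27 genes of sterol uptake, efflux and storage 22 were tested, 6 rose, 1 fell and 15 did not pass, with a median log2 change of 0.12. Apoe, a lipoprotein component made by macrophages among others, stood at 176, 165 and 178 FPKM in int 3 against 137, 136 and 130 in int 2 (0.36, adjusted p = 0.00788). Soat1, which esterifies cholesterol for storage, fell by 0.30 (adjusted p = 0.0176), at 7.75 to 8.17 FPKM in int 3 against 9.61 to 10.4 in int 2.

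Of 36 other fatty acid synthesis genes 30 were tested, 3 rose, 4 fell and 23 did not pass, with a median log2 change of 0.13. Slc25a1, the mitochondrial citrate carrier that feeds Acly, rose by 0.49 (adjusted p = 0.0139), at 63.0, 69.9 and 55.8 FPKM in int 3 against 44.8, 43.9 and 44.2 in int 2. Acsl3, an acyl-CoA synthetase, fell by 0.53 (adjusted p = 0.00285), at 17.7 to 19.4 FPKM in int 3 against 26.3 to 28.1 in int 2. Acss1, a mitochondrial acetyl-CoA synthetase, fell by 0.29 (adjusted p = 0.0127), at 19.1 to 19.9 FPKM in int 3 against 23.1 to 24.3 in int 2.

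Within int 3 the members did not all follow the same library order. Int 3-1 lay between int 3-2 and int 3-3 in 25 of the 29 members (86.2%). Int 3-2 was above int 3-3 in 16 members, led by Elovl6 (2.27-fold), Lss (1.87-fold) and Hsd17b7 (1.63-fold). Int 3-3 was above int 3-2 in the others, led by Acly (1.54-fold), Ebp (1.47-fold) and Scd2 (1.35-fold). The coefficient of variation of the members was 0.696% to 38.7% in int 3 (median 7.35%) and 0.262% to 7.31% in int 2 (median 2.54%). At least 530 fragments stood behind each member's value, the lowest being Hsd17b7 in int 3-3, so that counting error alone was 4.34% or less for every member in every library.

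**Figure D4:**
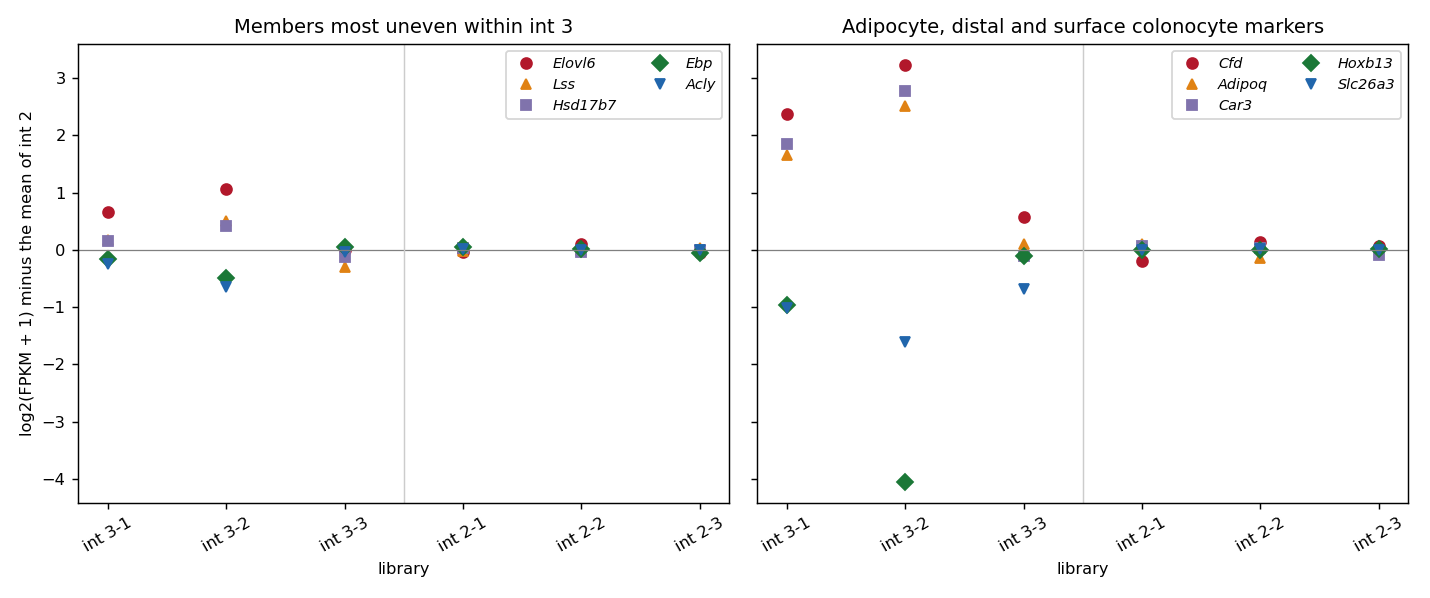
The 5 members with the largest coefficient of variation within int 3 (left) and marker genes of adipocytes (Cfd, Adipoq, Car3), the distal intestine (Hoxb13) and surface colonocytes (Slc26a3) (right), as log2(FPKM + 1) less the int 2 mean in each library. Elovl6, Lss and Hsd17b7 and the adipocyte genes are highest in int 3-2 and lowest of int 3 in int 3-3. Acly, Ebp, Hoxb13 and Slc26a3 are lowest in int 3-2. Of the 8 surface colonocyte genes, 3 (Car1, Krt20 and Guca2a) had their highest int 3 value there, with Guca2a below int 2 in every int 3 library. The distal genes Hoxd13 and Hoxa13, not drawn, were also lowest in int 3-2 but lay above int 2 in int 3-1 and int 3-3.

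Markers of other cell types moved with these groups and libraries. Their counts, here and in the lists that follow, also stand beside 8.64% of all tested genes called as higher and 6.7% as lower. The 12 adipocyte markers summed to 239, 343 and 151 FPKM across int 3-1, int 3-2 and int 3-3, against 109 to 111 in int 2. Of the 9 that were tested, 2 rose (Fabp4 and Lipe), 0 fell and 7 did not pass. Cfd, the adipocyte serine protease adipsin, stood at 41.6, 76.5 and 11.3 FPKM in int 3, against 6.17 to 8.09 in int 2. The defining lipid droplet gene Plin1 stood at 0.553, 1.51 and 0.124 FPKM in int 3, against 0.0992 to 0.169 in int 2, and Lep was at 0.162 or less throughout and at 0 in int 2-2. Of the called members, Scd1, Scd2, Acaca, Acat2 and Nsdhl had their highest int 3 value in int 3-3, where the adipocyte sum was the lowest of int 3. Srebf1, Fdps, Stard4 and Hmgcs1 had theirs in int 3-2, where that sum was highest, as did Elovl6, which was not called. In int 3-3 Fabp4 and Pnpla2 held 70.4 and 43.4 FPKM of the sum. Adipoq, Plin1, Cidec and Car3 did not exceed their int 2 range there, and the other markers did. The part of adipocytes in these results was not tested.

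Squamous and sebaceous markers were near 0, with a sum of 2.53 to 2.97 FPKM over 12 genes in int 3 and 2.56 to 3.33 in int 2, of which 1 was tested and 0 passed. Sprr1b was at 0 in all 6 libraries. Of 8 surface colonocyte genes 2 fell (Slc26a3 and Aqp8), and the sum of all 8 was 3369 to 6250 FPKM in int 3 and 5117 to 5221 in int 2. Of 8 genes of crypt proliferation 3 fell (Mki67, Top2a and Ascl2), with a sum of 154 to 194 FPKM in int 3 and 182 to 185 in int 2. Goblet cell genes (6 tested, 0 passed) went both ways. Their sum was 3871 to 3900 FPKM in int 3 and 1951 to 1998 in int 2. Agr2 and Zg16 held most of it, although Agr2 in int 3-3 (1055.5 FPKM) lay below int 2 (1156.6 to 1178.5). Muc2 stood at 274, 467 and 102 FPKM in int 3 against 93.5 to 96.1 in int 2. Clca1 stood at 83.5, 20.8 and 137 FPKM in int 3 against 184 to 187 in int 2, and Fcgbp had a log2 change of -0.30. Of 6 macrophage genes 4 rose (Adgre1, C1qa, C1qb and Cd68, by 0.48 to 0.81) and 1 fell, Lyz2, at 197 to 282 FPKM in int 3 against 331 to 338 in int 2. Lyz2 held most of the summed level, which was 321 to 422 FPKM in int 3 and 414 to 418 in int 2.

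Of the 6 smooth muscle genes 2 fell. Of 5 tested enteric glia genes 2 rose, with a sum over 6 genes of 11.4 to 21.9 FPKM in int 3 and 9.46 to 9.86 in int 2. All 5 B cell genes fell, with a sum of 4.44 to 37.9 FPKM in int 3 and 131 to 137 in int 2, and 3 of 5 T cell genes fell, with a sum of 5.58 to 12.1 in int 3 and 21.5 to 22.5 in int 2. Of the 6 epithelial genes 0 passed, and of 3 tested distal position genes 0 passed. The part of these cell types in the sterol and fatty acid results was not tested.

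**Figure D5:**
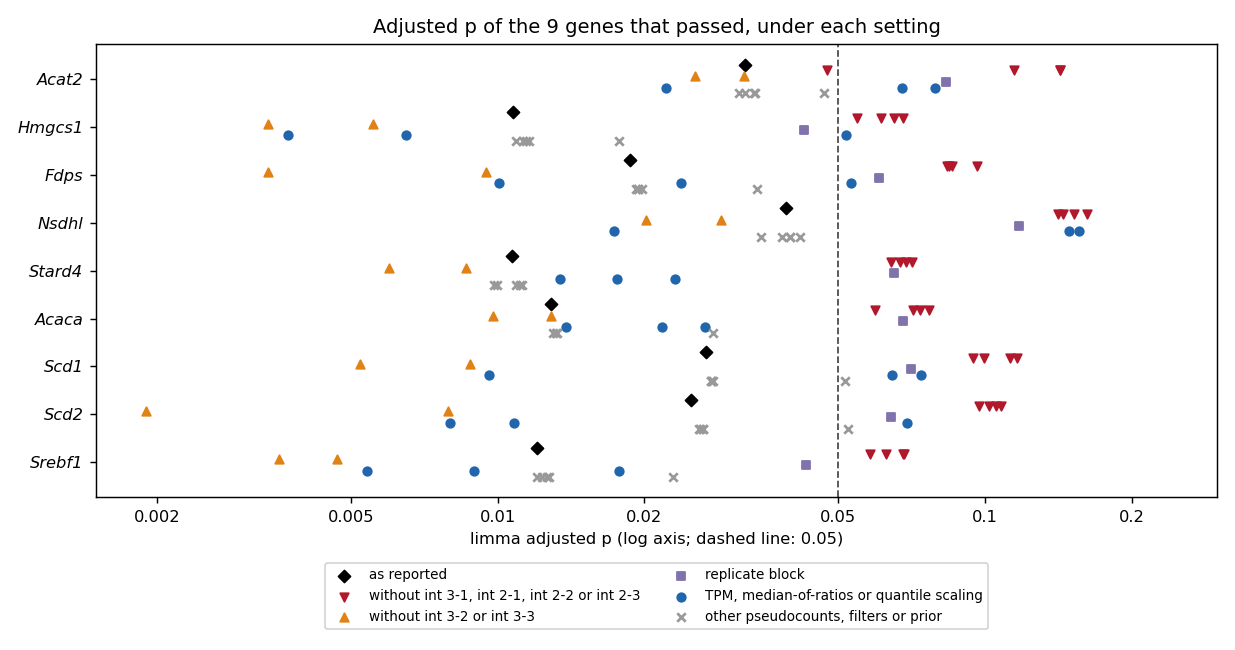
Adjusted p from limma, on a log axis, of the 9 members that passed, under each setting except library weights. Black diamonds are the reported values, and red triangles the fits without int 3-1, int 2-1, int 2-2 or int 2-3, which lie right of 0.05 for all but Acat2 without int 2-3 (0.0475). Orange triangles, the fits without int 3-2 or int 3-3, lie left of 0.05.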

How the data were processed

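The authors sequenced RNA of 6 large intestine libraries and deposited 1 table of FPKM values for 35434 gene symbols. That the unit is FPKM was read from the table's name and values. Per the submitters' processing notes the build was GRCm39. The aligner, counter, annotation and use of strand are not given in the sources used here. Exons of 11 members overlap another gene in the GENCODE annotation of GRCm38 (among those called, Fdps, Hmgcs1, Scd2 and Srebf1), and such values are uncertain. Among those not called, Fdft1 overlaps Ctsb on the other strand, at 135 to 136 FPKM in int 3 and 102 to 104 in int 2. Tm7sf2 overlaps Vps51 on the same strand, at 13.8 to 15.2 FPKM in int 3 and 14.7 to 16.0 in int 2.

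Columns were matched to samples by title, and 0 were unused. The 12525 genes that reached an FPKM of 1 in 3 or more libraries were fitted as log2(FPKM + 1), int 3 minus int 2, by limma 3.58.1 (R 4.3.3, moderated two-sided test with a trend). Benjamini-Hochberg adjustment covered all of them, at a threshold of 0.05. Changes on this scale are understated for low genes. The fit was tested on simulated data.

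Library totals, and fragments per member at the shortest length that gave whole numbers (tolerance 0.01 fragments), came from the steps of the FPKM values. Both served only for depth, and cover counting error only. Members and lists were chosen with earlier results of these data known. All 29 members are named, and of the other lipid lists the 3 called genes with the smallest p and the first called in the opposite direction, except that some genes are not reported here. Alternatives were pseudocounts of 0.1 and 0.01, filters, scalings, library weights, a robust prior, the replicate block and leaving out each library.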

Additional observations from a re-analysis of the deposited data

How the results depend on the processing

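Under the alternatives, 0 of the 29 members reversed a call. For the called members, whose groups did not overlap, leaving out 1 library could not have done so. The pseudocounts of 0.1 and 0.01 and the robust prior left each member on its side of the threshold. In the sterol branch, where 4 genes rose and 1 fell, 13 rose and 7 fell with library weights, 2 rose with median-of-ratios scaling, 1 rose with quantile normalization, 0 fell with TPM, and leaving out 1 library gave 0 to 6 higher and 0 to 3 lower. In the fatty acid branch, where 4 rose and 0 fell, 2 rose with median-of-ratios scaling, 2 rose without a filter, 1 fell with library weights, and leaving out 1 library gave 0 to 5 higher and 0 to 1 lower. Over all genes, where 1082 rose and 839 fell, 5450 rose and 3771 fell with library weights, 496 fell at a mean FPKM of 5 or more, and leaving out 1 library gave 372 to 3124 higher and 241 to 1789 lower. The estimate of the library weights stopped before it converged. Of the called genes 56.3% were higher in int 3 as deposited, 66.6% with TPM, 51.4% with median-of-ratios scaling and 47.3% with quantile normalization, and the median change of all genes was 0.03, 0.10, -0.0016 and -0.0099 in that order.

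With the replicate number as a block, 0 sterol genes rose and Hmgcs1 fell, 1 fatty acid gene rose (Srebf1), and 516 of all genes rose and 373 fell. The deviations of equally numbered libraries correlated at -0.0147, 0.00407 and -0.0215, and no int 3 library correlated best with its own number. With int 2 libraries that differ so little from each other, such correlations cannot show whether the numbers pair the libraries. Leaving out 1 library also leaves fewer samples to estimate the spread. Counting error was small beside the spread of the uneven members in int 3.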

Other observations

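Some genes that touch the same lipids were called without falling under the rule for named genes, and were chosen after their values were seen. In the list of sterol uptake, efflux and storage genes that rose included Scarb1, a receptor for high-density lipoprotein, Abca1, a cholesterol exporter, and the oxysterol enzymes Ch25h and Cyp7b1 (log2 changes of 0.52, 0.52, 0.50 and 0.56, limma adjusted p = 0.0488, 0.0407, 0.028 and 0.0258). Ch25h stood at 3.07, 2.93 and 3.74 FPKM in int 3 against 1.92, 1.76 and 2.31 in int 2, and Cyp7b1 at 1.97, 2.21 and 1.79 in int 3 against 1.13, 1.24 and 0.745 in int 2. The groups did not overlap for any of these 4 genes.

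Among the other fatty acid synthesis genes Thrsp, a lipogenic nuclear protein, and Dgat2, which makes triglycerides, rose (1.13 and 1.04, limma adjusted p = 0.0171 and 0.0461), while Mlxipl, the carbohydrate response factor ChREBP, and Acss2, the cytosolic acetyl-CoA synthetase, fell (-0.63 and -0.70, adjusted p = 0.0206 and 0.0433). Thrsp stood at 7.53, 10.2 and 5.18 FPKM across int 3-1, int 3-2 and int 3-3 against 2.63 to 3.02 in int 2, and Dgat2 at 16.4, 24.4 and 10.6 in int 3 against 7.21 to 7.58 in int 2. Both were highest in int 3-2, as was the adipocyte sum. Acss2 stood at 41.6, 31.1 and 52.2 FPKM in int 3, against 65.1 to 68.5 in int 2.

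Of 9 ratios between members or path neighbours within a library, also chosen after the values were seen, 8 had groups that did not overlap. Most of these pairs set a gene that was higher in int 3 over one that was lower, so this count followed largely from the choice. No share over other pairs was drawn up. Singly, int 3 lay wholly above int 2 in 22.4% of all tested genes and wholly below in 17.9%. Fdps over Hmgcs1 was 1.88, 1.96 and 1.86 in int 3-1, int 3-2 and int 3-3 and 1.12, 1.15 and 1.199 in int 2. Scd2 over Acly was 3.74, 4.22 and 3.70 in int 3 and 2.11, 2.22 and 2.17 in int 2, a narrower range in int 3 than that of either gene's FPKM.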
